A study of Brassica rapa with 38 samples.

Results

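Chromosome A04 of *Brassica rapa* is described here gene by gene, with attention to autotetraploid replicate 2, the RNA-seq library in which the chromosome made up a larger share of the RNA than in the other diploid and tetraploid libraries. The genes were chosen by position and level. A gene model was included when it was listed on A04, had at least 1 TPM in all 8 libraries and averaged at most 500 TPM. TPM, a unit scaled to an equal total in each library, measures how much of the transcript pool a gene makes up, corrected for gene length. The rule kept 1416 of the 3393 gene models of A04 (41.7%), among 46479 gene models in the whole series, of which 21630 met the same TPM limits. Of the other A04 models, 810 were listed at 0 in all 8 libraries and 799 were below 1 TPM in all of them without being 0 throughout. A further 345 reached 1 TPM in some libraries but not in all, and 23 averaged more than 500 TPM.

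The libraries came from a young inner leaf of plants starting to form a head, taken 60 days after sowing. The autotetraploid (3 libraries, called tetraploid below) was made by colchicine treatment of the diploid. The diploid (2 libraries) was made by colchicine treatment of the monoploid. The monoploid (3 libraries) came from cultured microspores of inbred line 85-1, so that all 3 ploidy levels share 1 genotype, and all plants had been propagated by tissue culture. The sources used here do not say how many plants stand behind each of these RNA-seq libraries or whether replicates came from separate regenerated lines, so every p-value below measures only the spread between these libraries. Depth, taken from the ratio of coverage to FPKM, was between 5.86 and 8.06 Gb of aligned bases per library, and tetraploid replicate 2 was the deepest.

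Plants that carry an extra copy of 1 chromosome tend to make more RNA from its genes, in proportion to the copies. This is called a gene-dosage effect. Some genes keep their level despite the extra copy, which is called dosage compensation, and genes elsewhere in the genome can change in response. Newly made autotetraploids often gain or lose single chromosomes because their homologous chromosomes do not always separate evenly in meiosis. In a tetraploid, a gain gives 5 copies in place of 4, and a proportional response is then a ratio of 1.25, or 0.32 on the log2 scale. This arithmetic is used below only as a line to measure against. The number of copies of A04 was not measured here, and an extra chromosome cannot be told apart from any other source of a higher A04 level in 1 library. In whole leaves, more RNA per cell and more cells with that RNA cannot be told apart either.

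Each gene was expressed relative to its own library: log2 TPM minus the median of the genes on the reference chromosomes A01, A03, A05, A06, A07, A08 and A10. The difference of a gene is its relative level in tetraploid replicate 2 minus the mean relative level in tetraploid replicates 1 and 3 and diploid replicates 1 and 2, called the 4 comparison libraries. A02 and A09 were left out of the reference because they were raised in other tetraploid libraries. Because the higher level of A04 in tetraploid replicate 2 is what singled the chromosome out, the differences are a description without a test, with 1 library on one side.

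The median difference of the 1416 A04 genes in tetraploid replicate 2 was 0.32, a fold of 1.25. The middle 50% of genes lay between 0.16 and 0.47. In the 4 comparison libraries the A04 medians were -0.013 in tetraploid replicate 3, -0.00014 in diploid replicate 1, 0.0048 in diploid replicate 2 and 0.0077 in tetraploid replicate 1. The rise was thus seen in tetraploid replicate 2 alone among the 3 tetraploid libraries. In the monoploid libraries, compared with the same 4 libraries, the A04 medians were between -0.068 and -0.045, and those of the reference chromosomes were between -0.076 and -0.013. The medians of the 7 reference chromosomes in tetraploid replicate 2 were between -0.0078 and 0.0059.

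**Figure D1:**
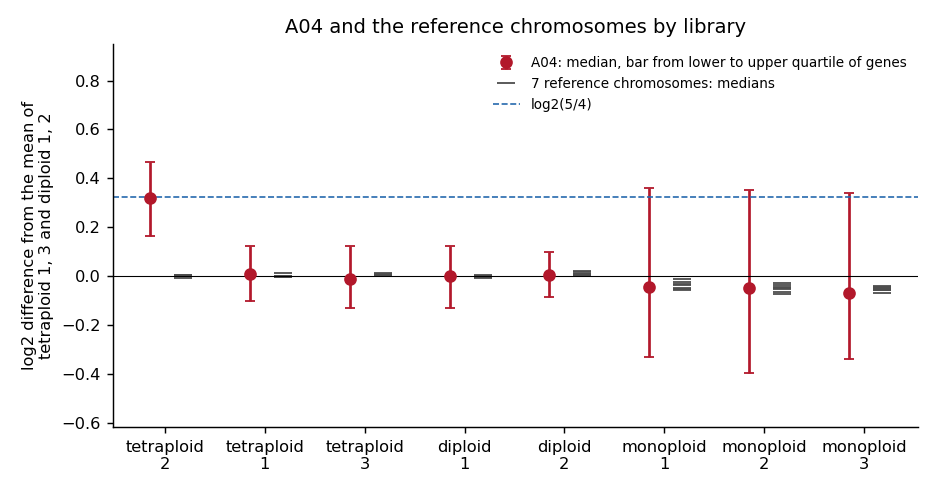
Level of A04 in each library: the y axis is the log2 difference of a gene from its mean over tetraploid replicates 1 and 3 and diploid replicates 1 and 2, red points are medians of 1416 genes with bars from the lower to the upper quartile, and grey ticks are the medians of the 7 reference chromosomes. Tetraploid replicate 2 sits at 0.32, on the dashed line for 5 against 4 copies, and the 4 comparison libraries, whose mean includes the library itself, sit between -0.013 and 0.0077.

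The same shift was found against each comparison library by itself. Tetraploid replicate 2 exceeded tetraploid replicate 1 by a median of 0.30, tetraploid replicate 3 by 0.34, and each of the 2 diploid libraries by 0.32. Between 83.5% and 87.4% of A04 genes were higher in tetraploid replicate 2 in these 4 pairs. In the 6 pairs among the comparison libraries the A04 median was between -0.017 and 0.022, and between 48.2% and 52.8% of genes were higher in the first library of the pair. Summed over the genes, A04 made up 11.8% of the TPM of the reference chromosomes in tetraploid replicate 2, against 9.57% ± 0.046 in the comparison libraries (SD, n = 4, range 9.51% to 9.62%), a ratio of 1.24. The summed share is carried mostly by strongly expressed genes, and its ratio and the median fold over genes were nearly equal.

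The shift was shared by most genes of the chromosome. In tetraploid replicate 2, 1262 of the 1416 A04 genes (89.1%) had a difference above 0, against 50.2% of the 15089 reference genes. The 5th and 95th percentiles of A04 were -0.15 and 0.77, and the extremes were -1.49 and 1.99. The width of the distribution was close to that of genes with no shift: the interquartile range was 0.305 on A04 and 0.300 on the reference chromosomes, and the SDs were 0.301 and 0.310. When A04 and the reference chromosomes were compared percentile by percentile, in steps of 5, A04 was higher by 0.31 to 0.32 at every step. A04 in tetraploid replicate 2 had the shape of the reference distribution, moved by about log2(5/4).

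**Figure D2:**
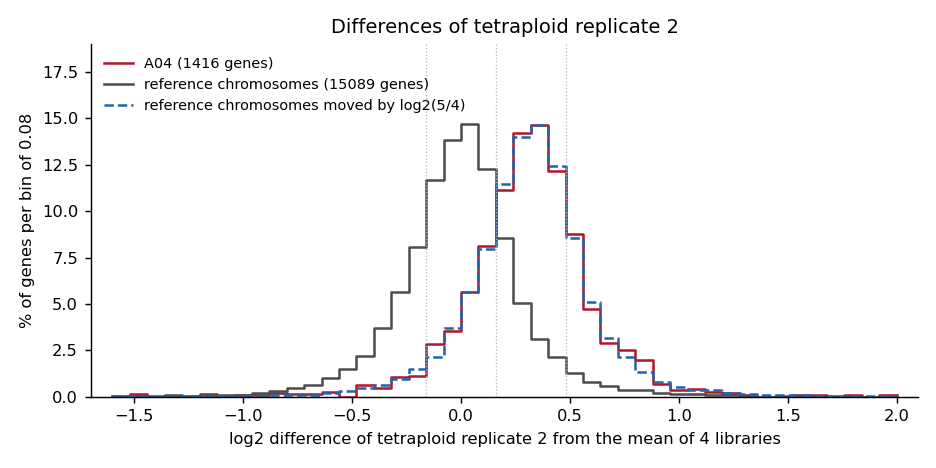
Distribution of the differences of tetraploid replicate 2 from the mean of the 4 comparison libraries (x axis, log2), as the percentage of genes per bin of 0.08 (y axis), for A04 in red, the reference chromosomes in grey and the reference chromosomes moved by log2(5/4) in dashed blue. Dotted lines mark -0.16, 0.16 and 0.48, and the A04 curve, with a median of 0.32, lies on the moved reference curve.

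To describe following, compensation and responses beyond dosage, the differences were divided midway between 0 and log2(5/4), and by the same distance below and above. On A04, 742 genes (52.4%) were between 0.16 and 0.48, the range around the 5 to 4 line, against 18.8% of the reference genes. The range around 0, from -0.16 to 0.16, where a fully compensated gene would lie, held 286 A04 genes (20.2%), against 52.7% of the reference genes. Above 0.48 were 324 A04 genes (22.9%) and 4.26% of the reference genes. Below -0.16 were 64 A04 genes (4.52%) and 24.2% of the reference genes.

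For comparison, moving every reference gene up by log2(5/4), with its own scatter, put 52.7% of them around the line, 19.6% around 0, 23.1% above 0.48 and 4.61% below -0.16. The A04 shares were thus within 1 percentage point of a chromosome on which every gene had been moved by the same amount. Genes more than 1 from their chromosome's own median were as frequent on A04, with 17 genes (1.20%), as on the reference chromosomes, with 187 genes (1.24%). The ranges describe values in 1 library and are not tested classes of compensated genes or of genes responding beyond dosage.

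Set against the spread of the comparison libraries gene by gene, tetraploid replicate 2 was above all 4 of them for 941 A04 genes (66.5%), against 20.2% of the reference genes. It was below all 4 for 37 A04 genes (2.61%), against 20.7% of the reference genes. Within their range it lay for 438 A04 genes (30.9%), against 59.1% of the reference genes. With 3 comparison libraries in place of 4, it was below all of them for 43 to 69 genes, with 64 when tetraploid replicate 3 was left out and 69 when diploid replicate 1 was. A range of 3 libraries is narrower by construction, and no reference share is given for these counts, so they are not read as a change on A04. For 560 A04 genes (39.5%) it was above the 4 libraries but inside their range moved by log2(5/4), the pattern of a gene that follows dosage, against 11.3% of the reference genes. For 165 genes (11.7%) it was inside the range and below the moved range, the pattern of a compensated gene, against 41.7% of the reference genes. For 273 genes (19.3%) both ranges held the value, and for 85 it fell between them. For 296 genes (20.9%) it was above the moved range, against 2.08% of the reference genes. When the reference genes of tetraploid replicate 2 were moved by log2(5/4), 68.1% were above all 4 libraries, 41.6% were above them but inside the moved range, 12.1% were inside the range and below the moved range, and 20.2% were above the moved range.

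As a measure of how often a library tops the others without a chromosome shift, each comparison library was compared with the remaining 3. Tetraploid replicate 1 was above the others for 383 A04 genes, tetraploid replicate 3 for 375 (26.5%), diploid replicate 1 for 381 (26.9%) and diploid replicate 2 for 277 (19.6%). On the reference chromosomes these shares were between 21.1% and 28.0%. Tetraploid replicate 2 was above the same sets of 3 libraries for 982 to 1015 A04 genes (69.4% to 71.7%) and for 23.2% to 26.3% of the reference genes.

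The most strongly expressed genes show the shift in single values. No gene names were available for these IDs, so genes are given by ID and position on A04, and their functions are not stated. BRA04G002776 (A04, 27554060 to 27556849, minus strand), the gene with the highest mean, had 646 TPM in tetraploid replicate 2, against 452 and 470 TPM in tetraploid replicates 1 and 3 and 559 and 506 TPM in diploid replicates 1 and 2. BRA04G002163 (24120708 to 24121984, plus strand) had 618 TPM in tetraploid replicate 2, against 489 and 446 TPM in tetraploid replicates 1 and 3 and 478 and 486 TPM in diploid replicates 1 and 2. BRA04G002970 (28594213 to 28594997, plus strand) had 552 TPM in tetraploid replicate 2, against 433 and 371 TPM in tetraploid replicates 1 and 3 and 446 and 499 TPM in diploid replicates 1 and 2. In all 3 genes tetraploid replicate 2 was the highest library of the 5, and the value stayed inside the range of the other 4 once that range was moved by log2(5/4). Their differences were 0.41 for BRA04G002776, 0.40 for BRA04G002163 and 0.37 for BRA04G002970, with SDs over the 4 comparison libraries of 0.095, 0.065 and 0.13.

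Genes of similar level could lie lower. BRA04G00545 (2840071 to 2842191, minus strand), the gene with the second highest mean, had 507 TPM in tetraploid replicate 2, against 468 and 432 TPM in tetraploid replicates 1 and 3 and 493 and 458 TPM in diploid replicates 1 and 2. BRA04G0097 (20665 to 22416, minus strand) had 449 TPM in tetraploid replicate 2, against 416 and 436 TPM in tetraploid replicates 1 and 3 and 375 and 456 TPM in diploid replicates 1 and 2. Relative to the reference chromosomes both genes were still highest in tetraploid replicate 2, by a difference of 0.16 for BRA04G00545 and 0.12 for BRA04G0097. Both stayed below the range moved by log2(5/4).

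The strongest genes with the pattern of compensation were BRA04G00285, BRA04G002858 and BRA04G001378. BRA04G00285 (1161683 to 1162331) had 346 TPM in tetraploid replicate 2, against 368 and 292 TPM in tetraploid replicates 1 and 3 and 366 and 437 TPM in diploid replicates 1 and 2. BRA04G002858 (27955282 to 27957161) had 263 TPM in tetraploid replicate 2, against 249 and 234 TPM in tetraploid replicates 1 and 3 and 247 and 287 TPM in diploid replicates 1 and 2. BRA04G001378 (18955289 to 18956790) had 215.0 TPM in tetraploid replicate 2, against 188 and 233 TPM in tetraploid replicates 1 and 3 and 184 and 215 TPM in diploid replicates 1 and 2. In each of them tetraploid replicate 2 lay between other libraries, with differences of -0.04, 0.08 and 0.10. The difference of BRA04G00285 turned to 0.05 when only tetraploid replicates 1 and 3 were the comparison and to 0.03 without diploid replicate 2.

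The largest differences belonged to genes that varied widely among the comparison libraries too. BRA04G00668 (3758547 to 3759734) had 59.6 TPM in tetraploid replicate 2, against 8.15 and 12.7 TPM in tetraploid replicates 1 and 3 and 29.2 and 17.7 TPM in diploid replicates 1 and 2, a difference of 1.99. This gene also varied within the monoploid group, with 7.04, 67.9 and 7.36 TPM in replicates 1, 2 and 3. BRA04G003189 (29670024 to 29670554) had 9.07 TPM in tetraploid replicate 2, against 1.37 and 2.13 TPM in tetraploid replicates 1 and 3 and 7.16 and 2.60 TPM in diploid replicates 1 and 2, a difference of 1.76. Tetraploid replicate 2 was the highest of these 5 libraries for both genes, while monoploid replicate 2 was higher still, with 34.7 TPM for BRA04G003189. BRA04G003003 (28777977 to 28779242), BRA04G003144 (29473595 to 29475412) and BRA04G002822 (27800898 to 27801938) came next, with differences of 1.63, 1.59 and 1.35. The SD over the 4 comparison libraries was between 0.51 and 0.97 for these 5 genes.

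The smallest differences were found in genes with SDs of 0.31 to 0.99 over the comparison libraries. BRA04G001310 (18549218 to 18550651) had 1.38 TPM in tetraploid replicate 2, against 2.84 and 5.54 TPM in tetraploid replicates 1 and 3 and 3.24 and 4.77 TPM in diploid replicates 1 and 2, a difference of -1.49. BRA04G002237 (24644516 to 24648079) had 2.31 TPM in tetraploid replicate 2, against 4.40 and 4.55 TPM in tetraploid replicates 1 and 3 and 5.25 and 7.64 TPM in diploid replicates 1 and 2, a difference of -1.18. Both genes were lowest in tetraploid replicate 2, and both were at 18.5 TPM or more in all 3 monoploid libraries. Their SDs over the comparison libraries were 0.45 and 0.31. BRA04G00469 (2274715 to 2275179), BRA04G002712 (27202158 to 27203351) and BRA04G003112 (29337786 to 29338750) had differences of -1.44, -1.16 and -1.0, with SDs over the comparison libraries of 0.99, 0.48 and 0.70.

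**Figure D3:**
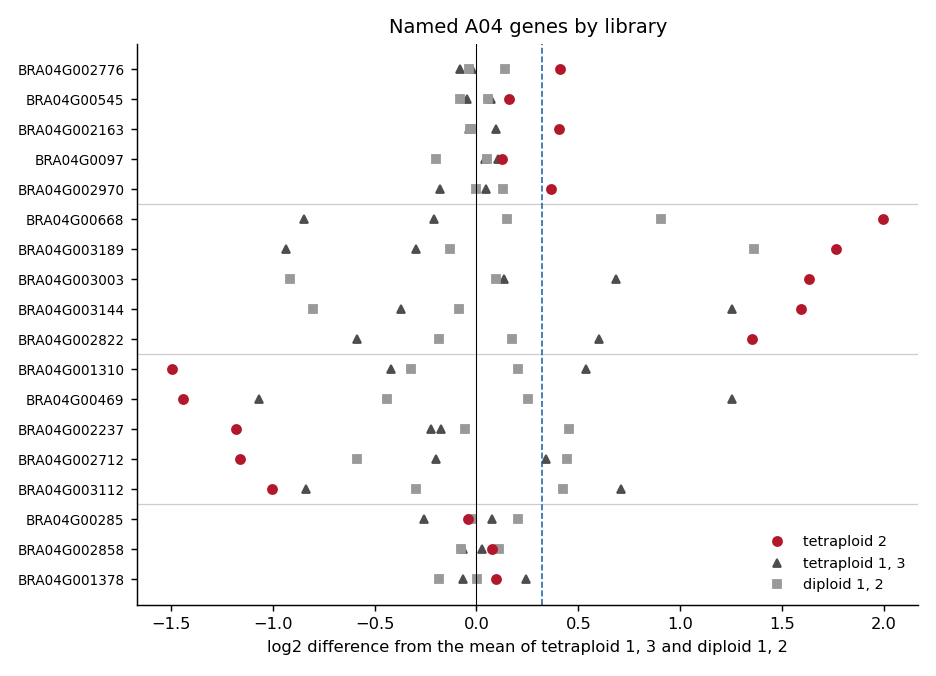
Named A04 genes by library: the x axis is the log2 difference from the mean of the 4 comparison libraries, red circles are tetraploid replicate 2, triangles tetraploid replicates 1 and 3, squares diploid replicates 1 and 2, and the dashed line is log2(5/4), with genes grouped from top to bottom as highest mean TPM, largest difference, smallest difference and the pattern of compensation. The other 4 libraries lie close together for the strongest genes, where tetraploid replicate 2 is at 0.12 to 0.41, and far apart for the genes with the largest differences, where it is at 1.35 to 1.99.

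The spread between the comparison libraries ordered how closely single genes lay around the shift. The A04 genes were divided into 5 groups of 283 or 284 by that SD. In the group with the least spread (SD 0.007 to 0.097), the median difference was 0.32, the interquartile range 0.215, and tetraploid replicate 2 was above all 4 libraries for 260 of 283 genes (91.9%), against 33.7% of reference genes in the same SD range. In the group with the most spread (SD 0.310 to 1.12), the median was 0.33, the interquartile range 0.519, and 101 of 284 genes (35.6%) were above all 4, against 13.3% of reference genes. The medians of the 5 groups were 0.32, 0.34, 0.33, 0.25 and 0.33. The share of genes around the 5 to 4 line was 70.0% in the group with the least spread and 32.4% in the group with the most. After the move by log2(5/4), the reference genes of these SD ranges gave 70.4% and 29.9%. In the group with SD 0.209 to 0.310 (median 0.25), 82 of 283 genes (29.0%) were around 0, against 22.5% of moved reference genes. Above 0.48 were 22.3% of this group, against 26.5%. In the groups with SD 0.097 to 0.147 and 0.147 to 0.208, 15.5% and 19.8% were around 0, against 18.7% and 21.2%. In the group with the most spread 21.8% were around 0, against 22.3%. These differences from the moved reference were not tested.

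In the group with the least spread, 42 genes (14.8%) were around 0, against 13.7% of reference genes in that SD range after the move by log2(5/4). Below -0.16 were 2 genes (0.71%), against 0.53% of those moved reference genes. These 2 genes are named because they were few, after their values were seen. BRA04G003165 (29561691 to 29562823) had 86.1 TPM in tetraploid replicate 2, against 97.5 and 96.1 TPM in tetraploid replicates 1 and 3 and 102 and 107 TPM in diploid replicates 1 and 2, a difference of -0.20 with an SD of 0.019. BRA04G002571 (26488016 to 26488938) had 19.9 TPM in tetraploid replicate 2, against 24.4 and 25.8 TPM in tetraploid replicates 1 and 3 and 23.4 and 26.4 TPM in diploid replicates 1 and 2, a difference of -0.30 with an SD of 0.097. For both genes tetraploid replicate 2 was the lowest of the 5 libraries.

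Expression level made little difference to the median. In 5 groups by mean TPM, from low to high, the median differences were 0.28, 0.33, 0.30, 0.33 and 0.34, where the first group spanned 1.33 to 5.38 TPM and the last 41.0 to 470 TPM. The reference genes in the same TPM ranges had medians of -0.04, -0.02, -0.0035, 0.02 and 0.03, so a similar small slope was present without a chromosome shift. The scatter differed more: the interquartile range was 0.411 in the lowest group and 0.270 in the highest. Tetraploid replicate 2 was above all 4 libraries for 134 of 283 genes in the lowest group and 219 of 284 in the highest (47.3% and 77.1%), against 16.4% and 24.1% of reference genes in those TPM ranges. Across the 1416 genes the difference and log2 mean TPM had a Pearson correlation of 0.038 and a Spearman correlation of 0.061, and across the reference genes 0.054 and 0.077. Genes of 1 library share that library and are not replicates, so no p-value is given.

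Gene span and strand gave similar medians. By span in bases, from short to long, the medians of the 5 groups were 0.35, 0.32, 0.31, 0.30 and 0.31, where the first group was 171 to 1026 bases and the last 3096 to 27025. Genes on the plus strand (727) had a median of 0.30 and genes on the minus strand (689) one of 0.34. The correlation of the difference with log2 span was -0.047 (Pearson) and -0.065 (Spearman) on A04, and -0.056 and -0.061 on the reference chromosomes. The genes around 0 on A04 had a median mean level of 11.2 TPM and those around the 5 to 4 line 15.9 TPM. The moved reference genes gave 10.8 and 15.3 TPM in the same ranges. Median span was 1916 bases in both of these A04 ranges.

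**Figure D4:**
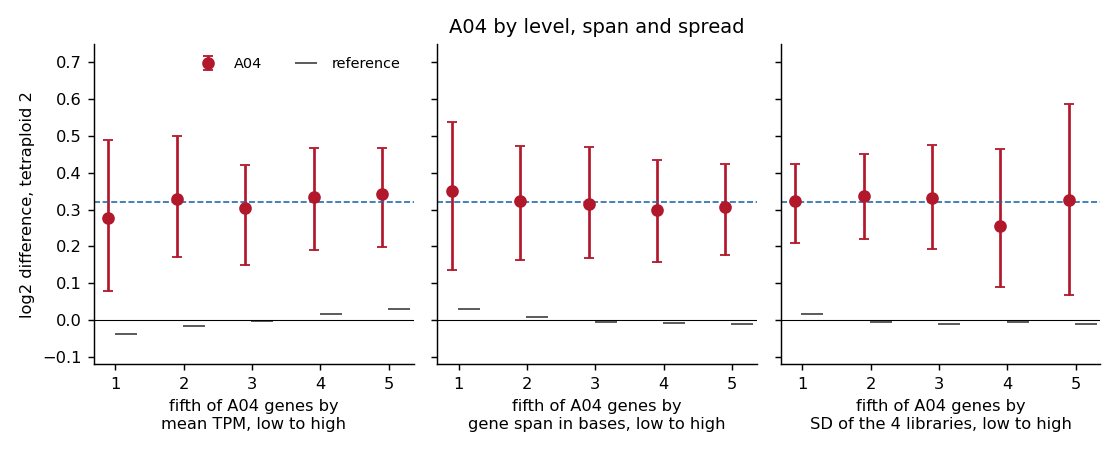
Difference of tetraploid replicate 2 (y axis, log2) in 5 groups of A04 genes by mean TPM, by gene span and by the SD of the 4 comparison libraries, each from low to high: red points are medians with bars from the lower to the upper quartile, grey ticks are the medians of reference genes in the same ranges, and the dashed line is log2(5/4). All A04 medians lie between 0.25 and 0.35, and the bars are longest where the spread between libraries is largest.

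The shift extended over the full length of A04. The genes ran over 31.9 Mb, between 15541 and 31902938. The largest stretch without a gene that met the rule, 9.34 Mb from 6566760 to 15904988, separated 387 genes with a median difference of 0.31 from 1029 genes with a median of 0.32. The first gene, BRA04G0095 (15541 to 16784), had 3.49 TPM in tetraploid replicate 2, against 2.87 and 1.57 TPM in tetraploid replicates 1 and 3 and 2.31 and 3.28 TPM in diploid replicates 1 and 2, a difference of 0.55. The last gene, BRA04G003446 (31902420 to 31902938), had 5.77 TPM in tetraploid replicate 2, against 5.94 and 4.69 TPM in tetraploid replicates 1 and 3 and 4.86 and 6.20 TPM in diploid replicates 1 and 2, a difference of 0.13. The first gene was highest in tetraploid replicate 2 and the last was not, and each is a single weakly expressed gene.

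In 28 consecutive windows of 50 genes (66 in the last), the median difference was between 0.24 and 0.36, with an SD of 0.033 over windows. The lowest window lay between 22102104 and 22883943 and the highest between 24867300 and 25703483. In each window at least 40 genes were above 0. The medians of the same windows in the 4 comparison libraries, whose mean includes the library itself, were between -0.071 and 0.082. No A04 window of tetraploid replicate 2 overlapped them, but A04 was chosen for its rise over these libraries. On the reference chromosomes, 299 windows in tetraploid replicate 2 gave medians from -0.11 to 0.42. The highest was a window of A06 (30234042 to 30433423), where the 4 comparison libraries themselves had medians from -0.70 to 0.52. Without A06 the 252 remaining windows gave -0.11 to 0.12.

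**Figure D5:**
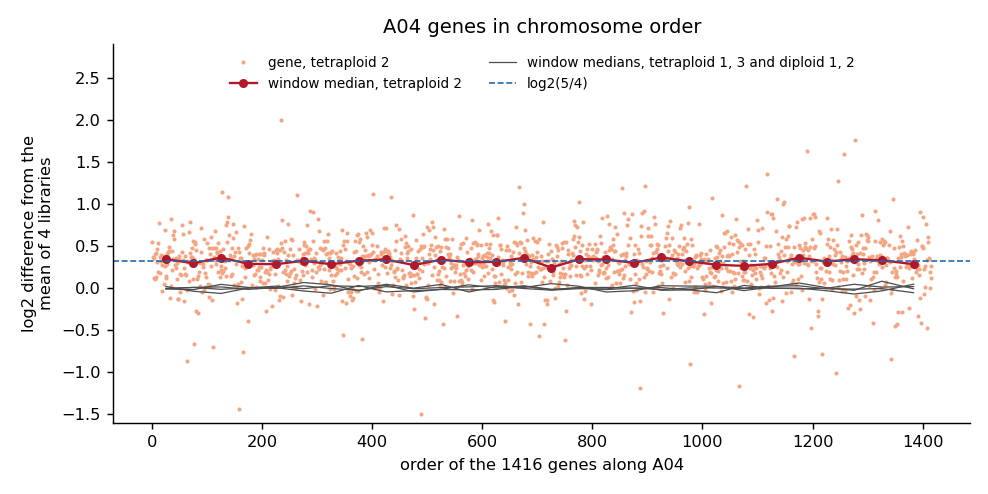
Differences of tetraploid replicate 2 from the mean of the 4 comparison libraries (y axis, log2) for 1416 genes in their order along A04 (x axis): small points are genes, the red line joins medians of windows of 50 genes, grey lines are the same medians for tetraploid replicates 1 and 3 and diploid replicates 1 and 2, and the dashed line is log2(5/4). The red medians stay between 0.24 and 0.36 from one end to the other. The grey ones, from libraries that are part of the mean, stay between -0.071 and 0.082.

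Neighbouring genes did not form long blocks of one kind. The correlation between the differences of a gene and the next was 0.040 over 1415 pairs on A04 and between 0.012 and 0.113 on the reference chromosomes. The longest run of genes at or below 0.16 was 5, from BRA04G001628 to BRA04G001651 (20614491 to 20759767). The longest run above 0.48 was 6, from BRA04G00409 to BRA04G00419 (1918754 to 1988455), and the longest above 0.16 was 21, from BRA04G002414 to BRA04G002461 (25686382 to 25923119). Within the run of 6, named after its values were seen, BRA04G00409 had 20.9 TPM in tetraploid replicate 2, against 13.2 and 13.4 TPM in tetraploid replicates 1 and 3 and 11.4 and 12.9 TPM in diploid replicates 1 and 2. In the same run, BRA04G00414 had 3.87 TPM in tetraploid replicate 2, against 4.35 and 2.13 TPM in tetraploid replicates 1 and 3 and 1.5 and 1.94 TPM in diploid replicates 1 and 2. In the run of 5, BRA04G001651 had 38.3 TPM in tetraploid replicate 2, against 32.1 and 40.9 TPM in tetraploid replicates 1 and 3 and 36.2 and 41.1 TPM in diploid replicates 1 and 2. In BRA04G00409 tetraploid replicate 2 stood above all 4 libraries, and in BRA04G00414 and BRA04G001651 it lay among them.

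The genes nearest to the limits of the rule were as follows. Just inside the minimum, BRA04G00958 and BRA04G001366 had lowest values of 1.00 TPM and differences of -0.00096 and 0.39. Just outside it, BRA04G00522 and BRA04G001312 had lowest values of 0.99 TPM. BRA04G00522 had 3.09 TPM in tetraploid replicate 2, against 1.78 and 1.68 TPM in tetraploid replicates 1 and 3 and 2.45 and 2.12 TPM in diploid replicates 1 and 2. BRA04G001312 had 1.09 TPM in tetraploid replicate 2, against 1.79 and 2.73 TPM in tetraploid replicates 1 and 3 and 0.99 and 3.34 TPM in diploid replicates 1 and 2. Under the upper limit, BRA04G002776 and BRA04G00545 averaged 470 and 455 TPM. Just above it, BRA04G00865 and BRA04G003381 averaged 511 and 517 TPM, with 736 and 566 TPM in tetraploid replicate 2.

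A04 models outside the rule with a value in all libraries leaned the same way, with more scatter. The median difference was 0.27 for 206 models averaging 0.1 to 1 TPM, 0.39 for 168 models averaging 1 to 5 TPM that did not reach 1 TPM in all libraries, and 0.25 for the 23 models above 500 TPM. The reference chromosomes gave 0.05, 0.07 and 0.02 in these ranges. The quartiles of the 23 strongest models were 0.0044 and 0.34.

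Shifts of the same size were present on A02 and A09 in the other tetraploid libraries, measured against libraries without that shift. The median was 0.33 for A02 in tetraploid replicate 1 (1999 genes), 0.31 for A02 in tetraploid replicate 3 and 0.32 for A09 in tetraploid replicate 1 (3126 genes). The shares of genes between 0.16 and 0.48 were 52.4% on A04 in tetraploid replicate 2, 50.9% and 47.2% on A02 in tetraploid replicates 1 and 3, and 54.7% on A09 in tetraploid replicate 1. The shares around 0 were 20.2% on A04, 16.5% and 22.1% on A02, and 18% on A09. A02 was measured against 3 libraries, and against 3 libraries A04 had 51.4% or 49.0% around the line and 19.6% or 21.2% around 0, without tetraploid replicate 1 or without tetraploid replicate 3. These comparisons share libraries, and the differences between chromosomes were not tested.

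The contrast of diploid against monoploid leaves tetraploid replicate 2 out of both means and was tested for the same genes. That library still enters the spread of the shared fit, and through it the p-values. The contrast asks which A04 genes differed after the first doubling. limma was fitted on log2(TPM + 1) over all 8 libraries and 25652 genes, each library centred on the reference chromosomes, and a gene was called when its p, adjusted by the Benjamini-Hochberg method, was at most 0.05 and its log2 change at least 1 in size. In the diploid, 23 of the 1416 A04 genes rose (1.62%) and 77 fell (5.44%), against a background of 1.90% rising and 5.13% falling among all 21630 genes that met the TPM limits and of 2.51% and 7.42% among all 25652 genes fitted. The A04 shares were close to those of the genes under the same limits in both directions. The ranges of the diploid and monoploid libraries were separate for all 100 called genes, and also for 824 of the 1416 A04 genes (58.2%) and 54.9% of all genes under the same limits, called or not. The median log2 change of the A04 genes was 0.05, and that of all genes fitted was 0.02. Without tetraploid replicate 2 in the fit, 22 rose (1.55%) and 77 fell (5.44%), against 1.88% and 5.07%. At an adjusted p of at most 0.05, whatever the fold, 101 A04 genes were higher with that library and 127 without it (7.13% and 8.97%). The shares of the genes under the same limits were 9.33% and 8.58%. Lower were 167 and 168 A04 genes (11.8% and 11.9%), against 10.5% and 10.4%. Without centring, the median of all genes moved to 0.25, and 52 A04 genes rose (3.67%) and 56 fell (3.95%), against 4.23% and 3.42% of the genes under the same limits. Without diploid replicate 1, 43 A04 genes fell (3.04%), against 2.44%.

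The 3 largest rises in the diploid were BRA04G001348, BRA04G00431 and BRA04G003273. BRA04G001348 (18791319 to 18792496) had 19.7 and 17.5 TPM in the diploid libraries, against 1.83, 4.98 and 1.08 TPM in the monoploid libraries, a log2 change of 2.35 ± 0.37 (SE, limma adjusted p = 0.0035). BRA04G00431 (2072780 to 2073904) had 14.6 and 23.5 TPM in the diploid libraries, against 3.35, 2.83 and 1.87 TPM in the monoploid libraries, a log2 change of 2.2 ± 0.28 (limma adjusted p = 0.00136). BRA04G003273 (30336382 to 30336783) had 69.1 and 63.1 TPM in the diploid libraries, against 7.90, 16.0 and 13.7 TPM in the monoploid libraries, a log2 change of 2.14 ± 0.34 (limma adjusted p = 0.00399). Each diploid value exceeded each monoploid value. In tetraploid replicate 2 these genes had 31.4, 31.3 and 95 TPM, and their differences from the 4 comparison libraries were 0.78, 0.76 and 0.81. All 3 were above the range moved by log2(5/4), as were 20.9% of all A04 genes. They are the top 3 of 23 called genes, and a link between the 2 contrasts was not tested.

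On the log2(TPM + 1) scale of the fit, the 3 largest falls in the diploid were BRA04G001872, BRA04G002499 and BRA04G003242. BRA04G001310, described below, had a change of -3.31 on that scale. BRA04G001872 (22350539 to 22352044) had 1.69 and 1.91 TPM in the diploid libraries, against 28.8, 44.2 and 29.1 TPM in the monoploid libraries, a log2 change of -3.85 ± 0.17 (SE, limma adjusted p = 4e-06). BRA04G002499 (26118178 to 26120363) had 23.5 and 21.1 TPM in the diploid libraries, against 177, 239 and 231 TPM in the monoploid libraries, a log2 change of -3.43 ± 0.46 (limma adjusted p = 0.00169). BRA04G003242 (30221783 to 30222216) had 14.8 and 11.2 TPM in the diploid libraries, against 87.2, 153 and 124 TPM in the monoploid libraries, a log2 change of -3.33 ± 0.21 (limma adjusted p = 2.76e-05). No diploid library reached any monoploid one. In tetraploid replicate 2 the levels were 2.96, 29.0 and 14.8 TPM, below every monoploid value for all 3 genes. The differences from the 4 comparison libraries were 0.32 for BRA04G001872, 0.96 for BRA04G002499 and 0.03 for BRA04G003242. With only tetraploid replicates 1 and 3 as comparison they were -0.16 for BRA04G001872 and -0.22 for BRA04G003242.

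Of the 5 genes with the smallest differences in tetraploid replicate 2, 3 were also called lower in the diploid against the monoploid, as were 5.44% of all A04 genes. BRA04G001310 had 3.24 and 4.77 TPM in the diploid libraries, against 43.4, 38.4 and 40.7 TPM in the monoploid libraries (log2 change -3.31 ± 0.36 SE, limma adjusted p = 0.000631). BRA04G002237 had 5.25 and 7.64 TPM in the diploid libraries, against 25.6, 18.5 and 23.6 TPM in the monoploid libraries (log2 change -1.90 ± 0.28, limma adjusted p = 0.00272). BRA04G002712 had 11.0 and 22.9 TPM in the diploid libraries, against 37.0, 45.0 and 42.4 TPM in the monoploid libraries (log2 change -1.55 ± 0.39, limma adjusted p = 0.023). The diploid libraries were below all monoploid libraries for each of these genes, which had been picked for their low level in tetraploid replicate 2. Of the 3 genes named for the pattern of compensation, BRA04G001378 was lower in the diploid by 0.70 on the log2 scale, which did not reach the fold threshold (limma adjusted p = 0.0139).

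Tetraploid replicate 2 is 1 of the 3 libraries in the tetraploid mean, so its higher A04 level enters every tetraploid contrast on this chromosome. Against the monoploid, 44 A04 genes rose in the tetraploid (3.11%) and 69 fell (4.87%), against 3.21% rising and 5.17% falling among genes under the same limits and 3.97% and 7.36% among all genes fitted. Without tetraploid replicate 2, 27 rose (1.91%) and 73 fell (5.16%), against 2.94% and 4.68%. Of the 44 rising genes, 26 were also called without tetraploid replicate 2 and 18 were not, and 1 gene was called only without it. Of the 69 falling genes, 64 were called both ways and 5 only with tetraploid replicate 2, and 9 were called only without it. The median log2 change of A04 was 0.14 with all 3 libraries and 0.05 without tetraploid replicate 2. Counting every A04 gene at an adjusted p of at most 0.05, whatever its fold, 276 were higher (19.5%) and 179 lower (12.6%) in the tetraploid, against 17.3% and 13.4% of all genes under the same limits. Without tetraploid replicate 2 the counts were 150 (10.6%) and 164 (11.6%), against 12.7% and 9.88%. Without centring of the libraries 73 A04 genes rose (5.16%) and 56 fell (3.95%), against 4.73% and 4.03% of the genes under the same limits. With each chromosome centred on its own median 29 rose (2.05%) and 90 fell (6.36%), against 2.82% and 5.49%.

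Against the diploid, limma called 0 A04 genes higher and 0 lower in the tetraploid, while 59 of the 1416 (4.17%) had an unadjusted p of at most 0.05, against 4.98% of all genes under the same limits. The background was 0.00462% rising and 0.00% falling among genes under the same limits, and 0.0234% and 0.00780% among all genes fitted. The median log2 change of A04 was 0.10 with all 3 tetraploid libraries and -0.0014 without tetraploid replicate 2. The A04 median thus moved with tetraploid replicate 2, and no gene was called with it or without it.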

How the data were processed

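RNA-seq of 8 leaf libraries (3 monoploid, 2 diploid, 3 tetraploid) was used. The other samples, which are ATAC-seq, ChIP-seq and their inputs, were not analysed here. The authors trimmed reads with fastp 0.21.0, aligned them with HISAT2 (2.2.1 in the submitters' processing notes, while the methods section gives another version) and quantified genes with StringTie 1.3.5. The genome build is not given in the sources used here, and coordinates are those of the files. The deposited TPM values are scaled to an equal total per library, so a raised chromosome slightly lowers the share of all others. The deposited FPKM values and the deposited coverage served only to give the depth. As no counts are given, precision rests on the replicates. The table of monoploid replicate 1 held 3 further value columns that belong to no sample, and they were left aside.

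The members, ranges and gene lists were chosen with earlier results of these data known. Differences were computed on log2 TPM without a pseudocount, with Python 3.11.15, pandas 2.3.3 and numpy 2.4.6, and drawn with matplotlib 3.10.9. limma 3.58.1 in R 4.3.3 was fitted on log2(TPM + 1) for genes with at least 1 TPM in at least 2 libraries, with 1 mean per ploidy level and eBayes with a trend, and was tested on simulated data. Of the gene IDs, 0 were found in the RefSeq gene table, so no markers of leaf tissue could be checked. The genes named were the 5 with the highest mean TPM, the 5 with the largest and the 5 with the smallest difference, the 3 strongest that followed and the 3 strongest that lay inside the comparison range but below the moved one, the 3 largest rises and falls of diploid against monoploid without overlap, the first and last gene, and the 2 just inside and just outside each limit. Alternatives changed the comparison libraries, reference chromosomes, filters, pseudocount, centring, thresholds and model, and left out each library in turn.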

Additional observations from a re-analysis of the deposited data

How the results depend on the processing

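The median difference of A04 was between 0.31 and 0.33 when any comparison library was left out. It was 0.34 with the monoploid libraries added, 0.35 with 9 other chromosomes as reference, 0.30 without centring, 0.29 on log2(TPM + 1), and 0.30 on that scale for genes with at least 1 TPM in at least 2 libraries. Genes below all comparison libraries numbered 93 with only the tetraploid and 94 with only the diploid libraries as comparison, 20 at a mean TPM of at least 5, 60 with at least 1 TPM in at least 2 libraries, and 43 to 69 when 1 library was left out. Fewer comparison libraries give a narrower range by construction, and the filters change the number of genes. No reference shares are given for these counts. Genes above the moved range numbered 464 and 488 against only the tetraploid and only the diploid libraries, whose ranges are narrower by construction. Genes below -0.16 numbered 171 with the monoploid libraries added and 37 at a mean TPM of at least 5. With ranges of 0.1 on each side, narrower by construction, 161 genes were around 0. For these counts and those above the moved range no reference shares are given either. They are therefore not read as a change on A04. In the diploid against the monoploid, 52 genes rose without centring (3.67%, against 4.23% of all genes under the same limits). When the adjusted p had to reach 0.01, 14 rose (0.99%, against 1.37%). When 1 monoploid or tetraploid library was left out, 66 to 94 fell (4.66% to 6.64%, against 4.27% to 5.72%). In the tetraploid against the monoploid, 73 rose without centring (5.16%, against 4.73%) and 29 with each chromosome centred (2.05%, against 2.82%). With a pseudocount of 0.1, 67 rose (4.73%, against 4.26%). When 1 library was left out, 27 to 58 rose (1.91% to 4.10%, against 2.94% to 3.70%). Where no construction is named, the cause was not tested. Leaving out a diploid library leaves 1, which is then assumed to vary like the other groups. With the replicate block, 25 A04 genes rose in the diploid against the monoploid (1.77%, against 1.78% of all genes under the same limits). In that contrast 72 fell (5.08%, against 4.39%). In the tetraploid against the monoploid, 44 rose (3.11%, against 3.24%) and 70 fell (4.94%, against 5.2%). In the tetraploid against the diploid, 0 were called. Deviations of same-numbered libraries from their group mean correlated between -0.22 and 0.22, and those of differently numbered libraries between -0.27 and 0.27. Between monoploid and tetraploid, same-numbered libraries gave 0.22, 0.18 and 0.082, and all differently numbered ones were between -0.19 and -0.015. In groups of 2 or 3 libraries such deviations depend on each other, so these values cannot settle whether the numbers pair the samples. Of 386 values of the 28 named genes under alternatives, 18 changed sign, 7 of them with the monoploid libraries added. Leaving A06 out of the reference windows was added after the data were seen. TPM tables hold no counts, so counting error of weak genes could not be separated from other scatter.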
